A study of Mus musculus with 6 samples.

Results

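Agilent's one-colour mouse array carries, besides probes for annotated genes, probes for stretches of the genome that the design names only by chromosome, start, end and a strand suffix, F or R. These intervals were taken as candidate intergenic transcripts, and 16194 of the 55681 non-control probes aim at them. The members described here are the 3525 interval probes (21.8% of all interval probes) selected on 1 measured value, the scanner software's flag for a signal well above background, which had to be set on all 6 arrays. They sit on 1629 of the 3543 intervals of the array. Coordinates are those of the array design, in build mm9. No mm9 gene annotation was used here, so it was not checked whether an interval lies outside genes, overlaps an exon, intron or untranslated region, or has a gene name. Which genomic strand the suffixes F and R stand for is likewise not stated in the sources used here, and probe positions within an interval were not used here.

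All RNA was from ventricle tissue; the mice were C57bl/6j males, 11 to 12 weeks old. The 3 Tead1 icKO mice carried Tead1F/F with the Myh6-CreER transgene, which makes a tamoxifen-dependent Cre recombinase under a cardiomyocyte promoter. The 3 control mice are labelled Tead1 flox, and tamoxifen was given to them too. As no Cre is named for them, what Cre itself does and what the deletion does cannot be told apart. Each array is labelled as 1 biological replicate. The series title places the question as whether adult cardiomyocyte function needs Tead1.

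Much of the mammalian genome outside annotated genes is transcribed. Long intergenic noncoding RNAs, enhancer RNAs, antisense transcripts, unannotated exons and read-through beyond the end of a gene all give signal in such regions. Many of these RNAs are scarce and specific to a tissue, and heart holds both cardiomyocyte transcripts and those of fibroblasts, endothelium and immune cells. TEAD1 binds DNA at promoters and distal enhancers and recruits the coactivators YAP and TAZ there. None of this background says what a given interval transcribes.

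Every level below is the log2 processed signal less the array's 75th percentile over non-control spots, so 0 is the signal at that percentile. A difference is the icKO mean minus the control mean on this scale. A member is called higher or lower where limma's Benjamini-Hochberg adjusted p over all 22282 tested features was under 0.05. The 75th percentile signal was 189 to 233 in controls and 292 to 348 in icKO, the share of probes well above background was 47.9% to 50.9%, and 0 spots were saturated. Over members, arrays of a group correlated at 0.972 to 0.981, and arrays of different groups at 0.933 to 0.948. The Tead1 probe stood at 4.01, 3.79 and 3.96 in controls and at 3.66, 3.44 and 3.46 in icKO, a difference of -0.40 ± 0.11 (SE, n = 3 and 3; limma, adjusted p = 0.030). Where it lies relative to the deleted part is not known here, so it does not check the labels. The Tead1 fall also depended on the scaling. Scaling to spike-in control probes, given below, moved the median of all features by 0.44, more than the size of this fall. All arrays lay on 1 slide, controls in columns 1, 1 and 2 and icKO in columns 2, 3 and 3, so position across the slide and group can hardly be told apart. Controls lay in slide rows 1, 2 and 1 and icKO in rows 2, 1 and 2. Outlier-flagged spots numbered 169 to 193 on row 1 arrays and 293 to 318 on row 2 arrays. The main fit had no row term, and a slide row block is given in the closing section.

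The detection rule sets what can be seen. Of the interval probes, 8937 (55.2%) were above background on 0 arrays, 1899 on 1, 592 on 2, 409 on 3, 353 on 4 and 479 on 5. A probe silent in either group is therefore no member, and transcripts gained or lost altogether fall outside these counts. The lowest signal of a member on any array was 15.1 on the linear scale, and the median of the members' lowest signals was 69.2. Just outside the threshold, the 479 probes that missed on 1 array had a median lowest signal of 20.1, and none of their lowest signals exceeded 34.2. Members were mostly dim: 2655 of them (75.3%) had a mean level below the array's 75th percentile. Probes differ in how well they hybridise, so no probe's level is set against another's as an amount of RNA.

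In icKO hearts more interval probes were called lower than higher with this scaling. Of the 3525 members, 1081 (30.7%) were called lower and 296 (8.40%) higher, and 2148 were not called. Over all features tested, 44.8% were called, 28.7% lower and 16.0% higher, so the members' share called lower was near the background and their share called higher was below it. Among features above background on all 6 arrays, as the members are, 43.7% were called, 28.3% lower and 15.4% higher. RefSeq mRNA features with that detection had 27.5% lower and 19.4% higher of 12078, and the 231 RefSeq noncoding features had 27.7% and 14.3%. Called members with a change over 2-fold numbered 221 lower and 88 higher. Differences over 2-fold, called or not, made up 9.59% of members, against 15.2% of all features, 11.6% of features above background on all 6 arrays and 13.5% of mRNA features.

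The members' differences had a median of -0.26 (interquartile range -0.55 to 0.05), against -0.14 over all features, -0.08 over mRNA features and -0.11 over RefSeq noncoding features. Measured array by array, 67.9%, 71.3% and 71.5% of members lay below their control mean on icKO arrays 1, 2 and 3. Without overlap between the 3 control and 3 icKO values, 1421 members (40.3%) were lower and 402 (11.4%) higher in icKO, where 37.7% and 21.6% of all features were, 59.3% in all. All but 1 of the 1377 called members had groups that did not overlap. The exception is A_30_P01020699 on chr6:133054025-133069850, suffix R, with -0.90 ± 0.30 (SE, n = 3 and 3; limma, adjusted p = 0.0482).

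**Figure D1:**
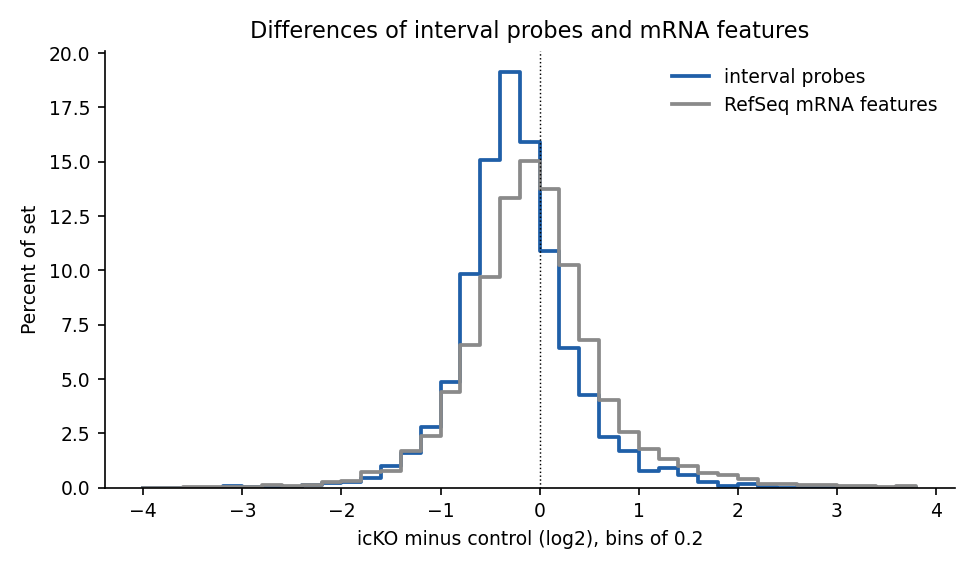
icKO minus control difference (log2, bins of 0.2, horizontal axis) against the percent of each set in a bin (vertical axis), for the 3525 interval probes and for 12078 RefSeq mRNA features above background on all 6 arrays. The interval probes have a median of -0.26 and the mRNA features -0.08 with the 75th percentile scaling, and the interval median turns to 0.18 with spike-in scaling; features beyond -4 or 4 are not drawn.

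This balance of directions depended on how the arrays were brought to a common scale. Before scaling, the members' median signal was higher in icKO, at 114, 123 and 102, than in controls, at 80.7, 97.7 and 90.7. The 75th percentile itself was higher in icKO too, and subtracting it leaves median levels of -1.46, -1.51 and -1.52 in icKO against -1.23, -1.26 and -1.25 in controls. Scaling to the 5 usable spike-in control probes instead moved the median of all features by 0.44 and gave 670 members higher and 211 lower, with a median of 0.18, where 39.7% of all features were called, 32.2% higher and 7.54% lower. Scaling to the array median moved all features by 0.16 and gave 374 higher and 572 lower, where 36.2% of all features were called, 19.7% higher and 16.4% lower. Higher members made up 21.5% of calls with the 75th percentile, 39.5% with the median, 29.8% with quantile normalization, 27.3% in the authors' value table, 13.6% after normexp background correction and 76.0% with the spike-ins. Over all features the same shares were 35.8%, 54.6%, 45.9%, 43.8%, 32.2% and 81.0%, above the members' share in each of the 6 settings. The members' median lay 0.12 below that of all features. Quantile normalization, the value table and normexp, which do not merely add a constant to each array, left it 0.11, 0.12 and 0.12 below. No call turned to the other direction under any alternative, and 296 members stayed higher and 211 stayed lower with the spike-ins.

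The 10 called members with the largest falls lay on 7 intervals of 4 chromosomes, and 20 named rises and falls in all kept their call and direction under each of the 18 alternatives. The deepest fall was on chr9:78107225-78118850, suffix F. Probe A_30_P01028766 stood at 1.09, 0.53 and 0.70 in controls and at -2.11, -2.51 and -2.66 in icKO. Every icKO value was far below every control value, a difference of -3.20 ± 0.20 (SE, n = 3 and 3; limma, adjusted p = 0.000234), or 9.19-fold lower. The other detected probe of the interval, A_30_P01018914, moved from 1.14, 0.80 and 0.95 to -1.72, -2.23 and -2.24, which is 8.15-fold lower. An overlapping interval with the same suffix, chr9:78104935-78116974, carried A_30_P01020518 at 1.40, 0.75 and 1.16 in controls and -1.28, -1.88 and -2.18 in icKO, 7.36-fold lower. These 3 probes may read 1 transcript and are not independent measurements.

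A second cluster of falls lay on chromosome 10. Interval chr10:69669025-69686275, suffix F, has 5 probes, of which 3 were members and all 3 fell. A_30_P01032544 stood at 0.34, 0.07 and 0.39 in controls and at -2.39, -2.04 and -3.00 in icKO, a difference of -2.74 ± 0.25 (SE, n = 3 and 3; limma, adjusted p = 0.000604). A_30_P01031764 moved by -2.68 ± 0.23 and A_30_P01027510 by -2.03 ± 0.35. The last of these held 1 icKO value, -1.11, nearer to the controls than -2.23 and -2.38, although the groups stayed apart. The nested interval chr10:69679644-69682458, also F, added A_30_P01029918, from -0.22, -0.16 and -0.02 to -2.76, -2.74 and -3.31, 6.99-fold lower.

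Elsewhere on the same chromosome, all 3 probes of chr10:39666719-39679959, suffix R, were members and fell, by -2.46 ± 0.23, -2.29 ± 0.18 and -2.26 ± 0.20 (SE, n = 3 and 3; limma, adjusted p = 0.000637, 0.000382 and 0.000595). A_30_P01033673, the first of them, stood at 0.92, 0.74 and 0.79 in controls and at -2.14, -1.25 and -1.54 in icKO. On chr13:22110479-22116629, suffix R, the single member of 5 probes, A_30_P01022120, moved from 1.91, 1.71 and 1.01 to -0.87, -2.04 and -1.85. Its icKO values spread over more than 1 log2 unit yet lay below each control, an 8.73-fold difference (adjusted p = 0.00142).

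The interval chr16:23992037-24001037, suffix F, fell on 6 of 6 detected probes of 7, with differences between -2.36 and -1.96 and a mean of -2.14. Its largest, A_30_P01020303, stood at 0.79, 2.42 and 1.49 in controls and at -1.36, -0.34 and -0.69 in icKO (-2.36 ± 0.45; limma, adjusted p = 0.00744). A_30_P01022030 read 0.29, 2.07 and 0.91 against -1.71, -0.79 and -1.28. Control 2 was the highest control on all 6 probes, and control 1 the lowest of the controls on all 6.

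All 10 of the largest rises carried suffix R. Of these, 3 lay on chr1:183783306-183834531, where 3 of 4 probes were members. A_30_P01017986 stood at -2.46, -2.04 and -1.52 in controls and at 0.43, 0.09 and 0.42 in icKO, a difference of 2.32 ± 0.25 (SE, n = 3 and 3; limma, adjusted p = 0.00102), or 4.98-fold. A_30_P01033568 rose 4.79-fold and A_30_P01022256 4.49-fold. All 3 were dim in each control and above the 75th percentile in each icKO heart.

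Interval chr10:24269165-24276690 rose on 3 of 5 probes. A_30_P01017799 read -1.19, -1.07 and -1.13 in controls and 1.12, 0.98 and 0.99 in icKO, a difference of 2.16 ± 0.09 (SE, n = 3 and 3; limma, adjusted p = 9.7e-05). A_30_P01022053 and A_30_P01018924 rose by 2.06 ± 0.10 and 1.94 ± 0.11. Replicates of A_30_P01017799 lay close together in each group, and no icKO value came near a control value.

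Among the rises, 4 more intervals are represented by 1 named probe each. A_30_P01023737 on chr13:21856097-21859200 was the brightest of them, at 4.0, 4.39 and 4.17 in controls and 6.42, 6.37 and 6.29 in icKO, 4.51-fold higher (adjusted p = 0.000185). A_30_P01018612 on chr1:173353316-173367449 rose from -2.64, -2.85 and -2.93 to -0.87, -0.57 and -0.55, 4.42-fold. A_30_P01030782, 1 detected probe of 5 on chr12:5303823-5379098, went from -2.90, -1.96 and -2.52 to -0.43, -0.57 and -0.30. In each case the groups were apart by more than either group's range.

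The last of the 10, A_30_P01018128 on chr19:36699712-36763966, read 0.36, 0.06 and 0.14 in controls and 1.81, 2.19 and 2.11 in icKO, a difference of 1.85 ± 0.14 (SE, n = 3 and 3; limma, adjusted p = 0.000382). The interval's other member, A_30_P01025186, rose less, by 0.85 ± 0.12 (adjusted p = 0.00229). Both probes moved up, so the direction is shared while the size differed between probes of 1 interval.

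**Figure D2:**
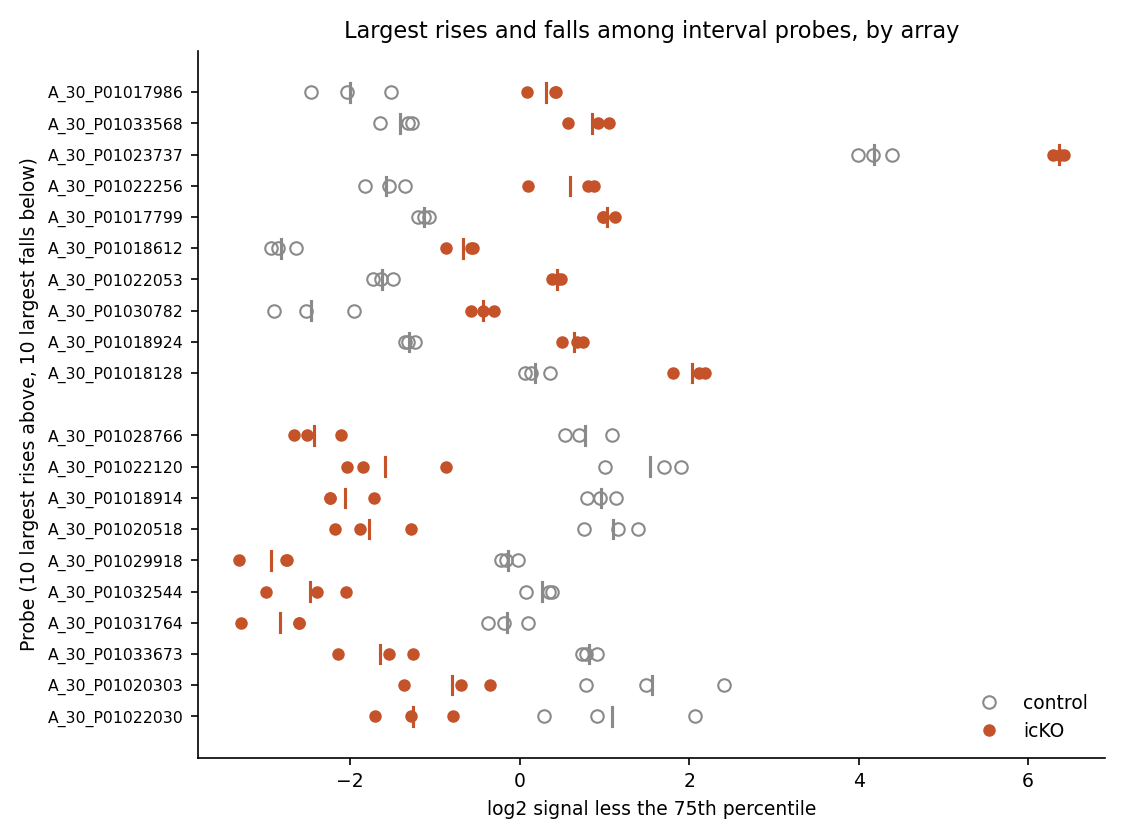
Level on each of the 6 arrays (horizontal axis, log2 signal less the array's 75th percentile) of the 10 interval probes with the largest called rises (upper rows) and the 10 with the largest called falls (lower rows); open grey points are control arrays, filled points icKO arrays, and ticks the group means. Control and icKO points do not overlap in any of the 20 probes, and A_30_P01028766 has the largest difference, -3.20.

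Of the 5 members with the highest mean signal, 3 had small differences whose calls depended on the scaling. On chr19:5801802-5802597, suffix R, A_30_P01031754 stood at 9.96, 10.09 and 10.06 in controls and at 9.71, 9.54 and 9.62 in icKO (-0.41 ± 0.10; limma, adjusted p = 0.0148). With quantile normalization, spike-ins and the authors' value table its difference was 0.07, 0.03 and 0.07, none of them called. A_30_P01028215 of the same interval was called at -0.36 ± 0.10 (adjusted p = 0.0227) and gave 0.08 with the spike-ins and 0.02 in the value table. A_30_P01031448 on chr14:78924115-78938125, F, gave -0.52 ± 0.10 (adjusted p = 0.00694), a call lost with the median, spike-ins and value table and turned to 0.00 with quantile normalization.

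The fourth bright probe fell under every alternative. A_30_P01018056 on chr2:168804720-168854970, suffix R, read 9.78, 9.68 and 9.74 in controls and 8.62, 8.60 and 8.83 in icKO, a difference of -1.05 ± 0.10 (SE, n = 3 and 3; limma, adjusted p = 0.000772). The fifth, A_30_P01022075 on chr17:17481706-17482457, did not pass, at -0.24 ± 0.09 (adjusted p = 0.0808), and its difference was 0.20 with the spike-ins, 0.18 with quantile normalization and 0.22 in the value table, also uncalled. At the other end, the members with the smallest differences were A_30_P01030240 on chr11:53592946-53637922 (0.00 ± 0.20), A_30_P01027099 on chr2:25782483-25783075 (-0.00 ± 0.10) and A_30_P01022779 on chr9:56391562-56392142 (0.00 ± 0.12).

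Brighter members were called more often, and their errors were smaller, while the median differences were alike. In 4 bins of members from dimmest to brightest, the share called was 25.7%, 37.3%, 41.5% and 51.6%, and the median SE fell from 0.19 to 0.12. Lower calls made up 22.4%, 30.3%, 31.2% and 38.7% of those bins and higher calls 3.29%, 7.04%, 10.3% and 12.9%. Over all features 44.8% were called, 28.7% lower and 16.0% higher. The lower share thus ran from below to above that of all features, and the higher share stayed below. Median differences over those bins lay between -0.30 and -0.23. Across members, level and SE correlated at a Spearman rho of -0.42, a description over 3525 probes that share 6 arrays. Interval probes as a class had a median SE of 0.156 against 0.125 for mRNA features.

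Probes of 1 interval and strand tended to move alike. Of 1903 stranded intervals with a member, 834 had 2 or more, 93 had 5 or more and the most was 10. The SD of differences within a stranded interval had a median of 0.15 over those 834, against 0.58 over all members. Only 444 of the 834 had 3 or more members, and an SD of 2 values tends to run low. In the 93 with 5 or more the median was 0.21. Taking the first 2 members of each by probe name, the pairs had a Spearman rho of 0.68, the same sign in 80.7% and a median gap of 0.18 (834 pairs on the same 6 arrays). Of 281 stranded intervals with 2 or more calls, 196 had only lower calls, 71 only higher calls and 14 both.

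Some intervals with 5 or more members show how close the probes came, and these examples were chosen after their values were seen. All 5 probes of chr4:11899775-11931875, F, fell, between -1.77 and -1.37, and all 5 of chr3:21964899-21974524, R, fell, between -1.53 and -1.37. All 5 members of chr15:32167516-32174427, R, rose, by 1.28 to 1.43, and those of chr3:137736327-137752677, F, by 0.93 to 1.01. Each of these ranges is a fraction of the difference itself.

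Probes of 1 interval could also disagree. The 14 stranded intervals called both ways included chr17:3198868-3394643, the only one with suffix F, whose 4 members ran from -0.56 to 1.20, and chr9:65376063-65390480, R, whose 3 members ran from -0.69 to 1.16. Interval chr14:105497388-105511063, R, had 3 members called higher and 2 lower. These intervals were named after their values were seen. The other 13 carried R, out of 451 R and 382 F stranded intervals with 2 or more members.

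**Figure D3:**
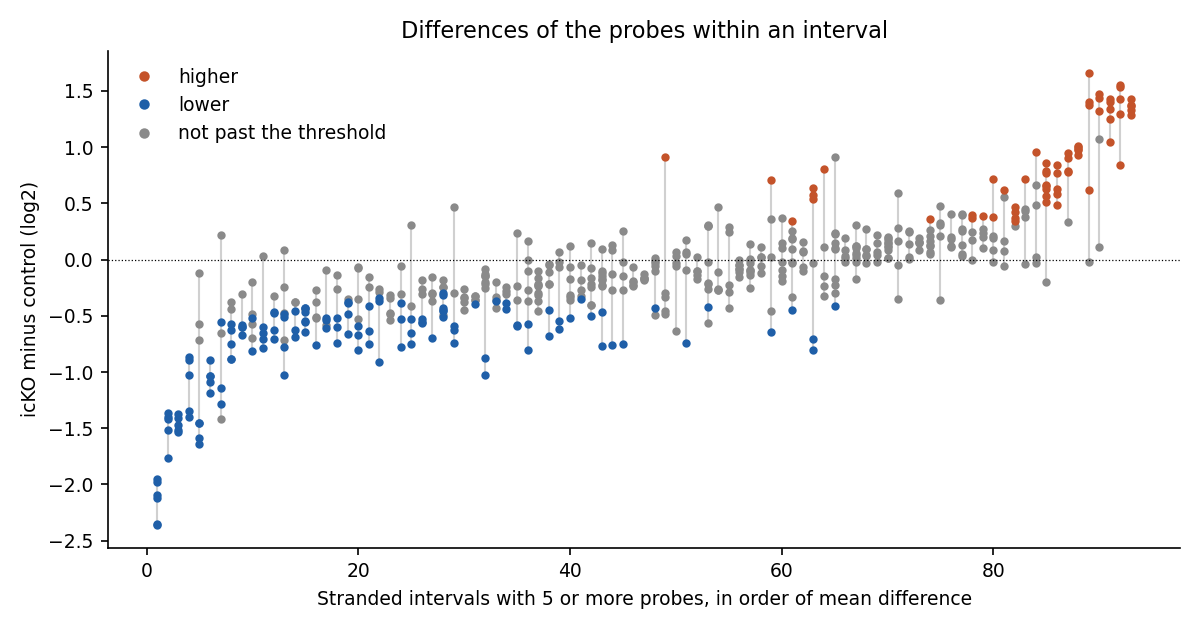
Difference (log2, icKO minus control, vertical axis) of each member on the 93 stranded intervals with 5 or more members, 1 column per stranded interval in order of its mean difference, coloured by call; grey lines span the members of an interval. Columns are short against the spread over columns, with a median SD of 0.21 within these intervals against 0.58 over all members, and spike-in scaling moves the median of all features up by 0.44.

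F members numbered 1652 of 8171 F probes (20.2%) and R members 1868 of 8010 (23.3%), and 5 of 13 probes without a suffix, all on chr17:12941161-12944859, were members. Of F members 32.3% were called lower and 7.08% higher, with a median difference of -0.26, and of R members 29.3% and 9.58%, with -0.25. Over all features 28.7% were called lower and 16.0% higher. The medians of F less R differed by -0.01 with the 75th percentile, the median and the spike-ins alike, and by -0.00 to -0.01 otherwise. With the spike-ins 298 of the 1652 F members were called higher and 96 lower, and 372 and 115 of the 1868 R members. Over all features that scaling called 32.2% higher and 7.54% lower. Differences over 2-fold, called or not, were found in 8.23% of F and 10.8% of R members: upward in 31 F (1.88%) and 71 R (3.8%), downward in 105 F (6.36%) and 131 R (7.01%).

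On 274 intervals both strands had a member, and their differences were compared between strands. The sign of the mean difference was shared in 207 (75.5%), 182 of them negative on both. Of single members, 71.5% were negative, which is another measure than a share of pairs. The same-sign share that unrelated strands would give was not computed. The same-sign share was 66.1% with the median, 71.9% with quantile normalization, 59.5% with the spike-ins and 79.9% after normexp. In those settings 59.3%, 64.2%, 32.9% and 79.5% of single members were negative, so the signs of members moved with the scaling too. The Spearman rho between strands was 0.24 over the 274 intervals, and the median gap was 0.34. Both strands held a call in 79 intervals. In 75 of them each strand was called in 1 direction, 62 lower on both, 4 higher on both and 9 opposite, and in the other 4 F was lower while R had calls both ways. These calls use the 75th percentile scaling, with which 28.7% of all features were called lower and 16.0% higher.

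The widest gap between strands was on chr10:24269165-24276690. Its R probes rose as given above, with a mean of 2.06, while the F probe A_30_P01023949 stood at -0.32 ± 0.11 (limma, adjusted p = 0.0491), a call that most alternatives lost and that turned to 0.12 with the spike-ins. On chr14:55671783-55680316 the strands opposed each other, on 1 member of 5 F probes and 2 members of 10 R probes. Its F member A_30_P01019517 fell by 1.08 ± 0.16 (limma, adjusted p = 0.00349). Its R members rose by 0.99 ± 0.19 and 1.15 ± 0.23 (adjusted p = 0.00824 and 0.00879).

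Elsewhere 1 strand carried the change. On chr10:69669025-69686275 the F mean was -2.48, and the R probe A_30_P01018532 gave -0.51 ± 0.19, which did not pass (limma, adjusted p = 0.0701). On chr1:183783306-183834531 the R mean was 2.25, and the F probes gave 0.17 ± 0.14 and 0.57 ± 0.22 (adjusted p = 0.356 and 0.0738). On chr5:106982442-107045717 the R probe A_30_P01018142 gave 1.04 ± 0.60 (adjusted p = 0.199), with icKO 1 at -0.07 and the other icKO arrays at -2.20 and -2.41, a spread within icKO wider than the difference. Its F probes were A_30_P01032526, called lower at -1.03 ± 0.23 (adjusted p = 0.0135), and A_30_P01017587, uncalled at -0.39 ± 0.14 (adjusted p = 0.0599).

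**Figure D4:**
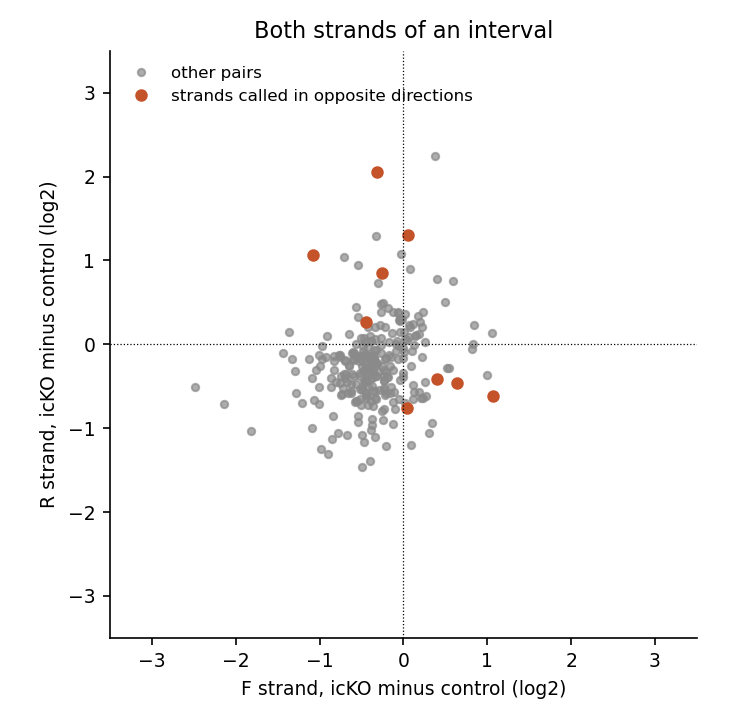
Mean difference (log2, icKO minus control) of the F members (horizontal axis) against that of the R members (vertical axis) for the 274 intervals with both; the 9 intervals whose strands were each called in 1 direction, opposite to the other, are coloured. With the 75th percentile scaling 182 points lie where both are negative, and the same-sign share of 75.5% becomes 59.5% with spike-in scaling. The share of single members that are negative moves from 71.5% to 32.9% between these scalings.

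Differences varied little with interval length. Members' intervals spanned 104 to 533972 bp with a median of 13693, and 13076 over all interval probes. In 4 bins from shortest to longest, 35.9%, 37.2%, 44.8% and 38.2% were called. Lower calls made up 26.8%, 29.6%, 35.0% and 31.2% of the bins and higher calls 9.18%, 7.60%, 9.80% and 6.98%. Over all features 44.8% were called, 28.7% lower and 16.0% higher. The medians were -0.19, -0.26, -0.31 and -0.26, which with spike-ins were 0.25, 0.18, 0.13 and 0.18. Length and difference correlated at a Spearman rho of -0.06, and detection moved from 21.0% in the shortest bin to 23.0% in the longest.

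Members lay on all 20 chromosomes given, from 92 on chromosome 19 to 270 on chromosome 2. The share called ran from 25.8% on chromosome 11 to 51.0% on X. Higher calls made up 3.14% of members on chromosome 11, 14.7% on 1, 14.4% on 3 and 13.9% on 13, and lower calls 22.6% on chromosome 11 and 41.2% on X. Over all features 44.8% were called, 16.0% higher and 28.7% lower, so each of these higher shares was below that of all features. Chromosome medians ran from -0.36 to -0.14 and were negative on all 20 with the 75th percentile, on 19 with the median and on 0 with the spike-ins. Members of 1 interval are not independent, and a chromosome's share can rest on a few intervals.

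**Figure D5:**
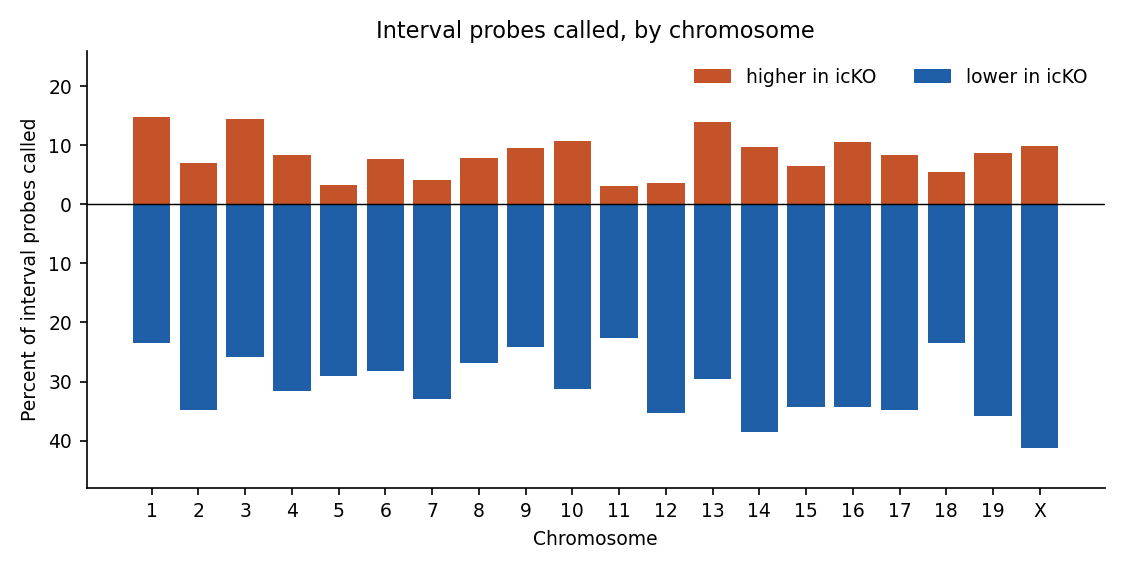
Percent of the interval probes called higher (bars above 0) and lower (bars below 0, labelled as percent) in icKO (limma, adjusted p under 0.05) on each of the 20 chromosomes. Lower calls outnumber higher calls on each chromosome with the 75th percentile scaling, from 22.6% lower on chromosome 11 to 41.2% on X, while spike-in scaling turns the balance over all members to 670 higher and 211 lower. Over all features 28.7% were lower and 16.0% higher with the 75th percentile, and 7.54% and 32.2% with the spike-ins.

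Neighbouring stranded intervals were compared by distance and strand, with no test. The 242 overlapping same-strand pairs had a Spearman rho of 0.48 and the 138 overlapping opposite-strand pairs 0.03. Same-strand neighbours under 10 kb apart gave 0.28 (50 pairs), those 10 to 100 kb apart 0.18 (109 pairs) and those over 100 kb apart -0.04 (467 pairs). Opposite-strand neighbours at those distances gave -0.07 (40 pairs), 0.10 (70 pairs) and 0.11 (491 pairs). The same-sign shares did not follow that order: from overlap outward they were 75.2%, 74.0%, 64.2% and 64.9% on the same strand and 68.1%, 72.5%, 75.7% and 67.8% on opposite strands. Overlapping intervals may share transcripts, so these are descriptions. Joined across gaps of up to 50 kb, the members formed 1031 loci, of which 312 had 2 or more calls: 224 only lower, 45 only higher and 43 both. These counts use the 75th percentile scaling, with which 28.7% of all features were called lower and 16.0% higher. Spike-in scaling called 670 members higher and 211 lower, and the 3 counts of loci by direction are not given for it.

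The locus with the most calls was chr17:39960567-39992817, with 20 members on 5 intervals. Its 10 R members all fell, between -1.40 and -0.57, while its 10 F members lay between -0.49 and 0.12 with 4 called lower. The locus kept 5 of its 14 calls with the spike-ins. The second, chr6:30983012-31293337, had 23 members on 8 intervals, 8 called higher and 3 lower, with differences from -0.82 to 1.74. Its 11 calls went to 5 without control 1 and to 5 without control 3, to 7 with the replicate block and to 4 with no filter on dim probes.

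The third locus, chr1:175653557-175717250, had 16 members, all R, with 11 called higher, 0 lower and a median of 1.30. Its intervals chr1:175653557-175671940, chr1:175654606-175672031 and chr1:175660642-175671878 overlap, so their probes may read 1 transcript. Interval chr1:175654606-175672031 rose on 5 of 5 members, with a mean of 1.33. On chr1:175660642-175671878, A_30_P01030969 gave 0.22 ± 0.21 and was not called (limma, adjusted p = 0.416). Interval chr1:175705225-175717250 did not move as 1 unit. Its probe A_30_P01024163 rose by 0.91, while its other 4 members gave -0.48 to -0.30 and were not called.

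Marker genes of cell types moved between the groups alongside these differences. Of the cardiomyocyte list 4 of 5 genes were called lower, with the summed level at 12.2 to 12.6 in controls and 11.7 to 11.9 in icKO. All 4 fibroblast genes rose (7.64 to 8.34 against 8.83 to 9.11), as did both measured macrophage genes (4.53 to 4.93 against 5.58 to 5.97). Of 3 endothelial genes 1 was lower, and both smooth muscle genes were uncalled. The muscle creatine kinase gene Ckm, also made in heart, fell by 2.37 (adjusted p = 0.000144), and the T cell gene Cd3e by 0.49 (adjusted p = 0.0267). The erythrocyte list stood at 8.46 to 9.30 in controls and 9.28 to 10.37 in icKO, with Alas2 higher by 1.79 (adjusted p = 0.0434) and Hba-a1 uncalled. The defining genes Myh4 and Cd3g were above background on 0 arrays, and the atrial genes Sln and Myl7 on 1 and 2. All marker calls used the percentile scaling, and calls with other scalings are not given here. Spike-in scaling moved the median of all features up by 0.44. The Tnnt2 difference (-0.38) was smaller in size than that shift, and those of Actc1 (-0.51) and Cd3e (-0.49) were only slightly larger. Myh6 (-0.69), the endothelial gene Kdr (-0.65), Tnni3 (-1.03) and Ckm (-2.37) fell by more. These falls therefore depend on the scaling to differing degrees. In whole ventricle, fewer cells of a type and less RNA per cell cannot be told apart, and the part of these markers in the interval differences was not tested.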

How the data were processed

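Cy3-labelled RNA was hybridised to 6 one-colour arrays, 3 control and 3 icKO, per the labels. The deposited scanner files hold background-subtracted spot intensity on a linear scale from Feature Extraction 11.0.1.1 on array design 028005 in build mm9, per the file headers, while the submitters' processing notes name version 9.1. The authors' value table also holds intensity, and how it was made is not stated in the labels or headers used.

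From each log2 signal the array's own 75th percentile (non-control spots) was subtracted. Outlier-flagged spots were left out, which dropped an array for 30 members, and spots of a probe were averaged. Probes above background on all 3 arrays of a group were tested, the brightest for each of 12968 named genes (names from RefSeq, GRCm38.p6) and others singly, 22282 features in all. Groups were compared with limma 3.58.1 (lmFit, eBayes; R 4.3.3), adjusted by Benjamini-Hochberg. The steps were tested on simulated data. Normexp used the median signals with an offset of 50, in place of the mean signals first planned.

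Named members were the 10 largest rises and falls past the threshold with groups apart, the 5 highest signals, the 3 smallest differences, the 5 widest strand gaps and the 3 loci with most calls; the 111 members of 1 chromosome were counted, not named. The members and lists were chosen with earlier results of these data known. The alternatives are in the closing section. Deviations of replicates with the same number correlated at r from -0.13 to -0.00. Each such pair lay in different slide rows, so these values cannot decide whether the numbers pair mice. No sequences are shown, since no mm9 genome was used here. The labels do not say that replicate numbers pair mice. P-values measure the spread between these 6 arrays, and the number of arrays limits the precision.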

Additional observations from a re-analysis of the deposited data

How the results depend on the processing

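Against 296 members called higher and 1081 lower, spike-in scaling gave 670 and 211, no filter on dim probes 142 and 497, and median scaling 374 and 572. The median difference of -0.26 became -0.10 with median scaling, -0.16 with quantile normalization, 0.18 with spike-ins and -0.19 (-0.185) in the authors' value table. The share of strand pairs with 1 sign, 75.5%, became 66.1%, 71.9%, 59.5% and 79.9% with median scaling, quantile normalization, spike-ins and normexp. The share of single members with a negative difference, 71.5%, became 59.3%, 64.2%, 32.9% and 79.5% in the same order. Without the filter 12.4% of all 49244 features were called, against 44.8%. Dim features then enter the fit, the adjustment and the count, and the part of each was not tested. The cause of the other moves was not tested either. Leaving out 1 array in turn gave 229 to 262 higher, 769 to 987 lower and medians from -0.27 to -0.24, with 33.8% to 40.8% of all features called. A replicate block gave 232 higher and 868 lower, and a slide row block 270 and 932, with 35.4% and 40.2% of all features called; the numbers share no source in the labels. Signs turned for A_30_P01031754 (0.070 with quantile normalization, 0.028 with spike-ins, 0.072 in the value table), A_30_P01028215 (0.078 with spike-ins, 0.024 in the value table), A_30_P01031448 (0.0021 with quantile normalization), A_30_P01023949 (0.12 with spike-ins) and A_30_P01027099 (0.44 with spike-ins). Over the named probes and loci, 705 comparisons with an alternative kept their side of the threshold, 21 of them with a changed sign between uncalled values, 29 lost the call, 9 gained it, 8 turned and 5 locus counts moved. Probe A_30_P01024757 on chr3:85571525-85645700 gave 0.38 ± 0.54 with icKO 1 left out for its outlier flag and 2.78 with it kept (limma, adjusted p = 0.603 and 0.288).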
